A study of Mus musculus with 24 samples.

Results

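This report describes the transcripts of 10 genes that make nitric oxide, carry its cGMP signal or compete with it for arginine, in lungs and retinas of newborn mice that were kept in hyperoxia or room air (RA). The genes were chosen by name as Nos1, Nos2, Nos3, Gucy1a1, Gucy1b1, Pde5a, Prkg1, Arg1, Arg2 and Ddah1, and all 10 were found among the 36109 genes of the lung table and the 36595 genes of the retina table. RNA-seq was made on 12 lungs and 12 retinas, in 4 groups of 3 mice per tissue. The groups were WT and homozygous GSDMD-KO littermates on a C57/B6 background, born to heterozygote parents, in RA (WT-RA, KO-RA) or hyperoxia (WT-O2, KO-O2). GSDMD encodes gasdermin D, a pore-forming protein of inflammatory cell death, and the KO mice carry a small CRISPR/Cas9 deletion within 1 exon of Gsdmd in every cell. Lung mice breathed 85% or 21% oxygen from postnatal day 1 to 14 and were examined on day 15. Retina mice in the hyperoxia groups breathed 75% oxygen from day 7 to 12 and then recovered in RA until collection on day 18, while their controls stayed in RA throughout.

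Nitric oxide is made from arginine by the NO synthases, and in vessels it diffuses into smooth muscle, where it binds soluble guanylate cyclase, a heterodimer that makes cGMP. cGMP activates the kinase PKG, which relaxes vascular tone, and phosphodiesterases such as PDE5 end the signal by breaking cGMP down. Arginases draw on the same arginine, and DDAH enzymes remove ADMA, an endogenous inhibitor of the NO synthases. In the newborn lung this pathway lowers pulmonary vascular tone and takes part in vessel and alveolar growth. In the retina it acts in vessels and neurons, and photoreceptors use cGMP as the messenger of the light response.

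Totals were 28763661 to 29604254 counts per lung library and 24863257 to 29093035 per retina library. Gsdmd itself had 40.4 to 43.2 CPM (a count as its part of all counts of the library, on a fixed scale) in WT-RA lungs and 23.2 to 25.2 CPM in KO-RA lungs, 32.1 to 36.2 CPM in WT-O2 lungs and 11.4 to 16.7 CPM in KO-O2 lungs. At either exposure every KO lung was lower than every WT lung, and none was at 0. In the retina Gsdmd was low and the genotypes were less distinct. They overlapped in RA, with 0.593 to 1.04 CPM in KO-RA and 0.375 to 3.66 CPM in WT-RA. The lowest RA retina was the library labelled WT-RA replicate 2, which lay below all KO-RA retinas. After hyperoxia every KO retina lay below every WT retina, with 1.14 to 3.07 CPM in KO-O2 and 3.198 to 5.945 CPM in WT-O2. Transcripts of the lens made up 2.48% of the counts of KO-RA replicate 3, 1.69% of WT-RA replicate 2 and 4.65% of WT-RA replicate 3 in the retina, and at most 0.0280% in the other retinas. Lungs with Y-linked transcripts numbered 0 of 3 in WT-RA and 1 of 3 in WT-O2, and for KO 2 of 3 in RA and 3 of 3 in hyperoxia. Retinas with them numbered 3 of 3 in either RA group and 1 of 3 in either hyperoxia group. Each tissue held its defining cells, with lung epithelial markers summing to 19879 to 35346 CPM in the lung and markers of retinal neurons to 48317 to 65214 CPM in the retina.

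The members differed widely in level. Levels between genes are compared as CPM divided by the length in kilobases of the longest coding transcript, with library sizes scaled by TMM (trimmed mean of M values). In the lung the cyclase subunits Gucy1a1 and Gucy1b1 were highest, at means of 58.9 and 48.4 CPM per kb over the 12 mice. Pde5a followed at 39.8 and Ddah1 at 21.3 CPM per kb. Nos3, the endothelial NO synthase, had 13.2 CPM per kb and was the leading synthase, above Nos2, the inducible enzyme, at 5.12 CPM per kb. The ranges of Prkg1 (2.64 to 5.33 CPM per kb) and Arg2 (1.01 to 7.30 CPM per kb) overlapped, as did those of Arg2 and Arg1 (1.30 to 3.07 CPM per kb). Nos1, the neuronal synthase, was lowest at 0.0588 CPM per kb.

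In the retina the order was another. Gucy1b1 and Gucy1a1 again led, with overlapping ranges and means of 19.1 and 16.6 CPM per kb. Arg2, the mitochondrial arginase, came next at 13.9 CPM per kb, beside Ddah1 at 12.7 CPM per kb. Nos3 had 2.19 CPM per kb, and Prkg1, Arg1 and Pde5a had 1.25, 1.18 and 0.741 CPM per kb with overlapping ranges. Nos1 had 0.274 and Nos2 0.197 CPM per kb. The 2 tables were scaled separately, so no test was made between tissues.

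**Figure D1:**
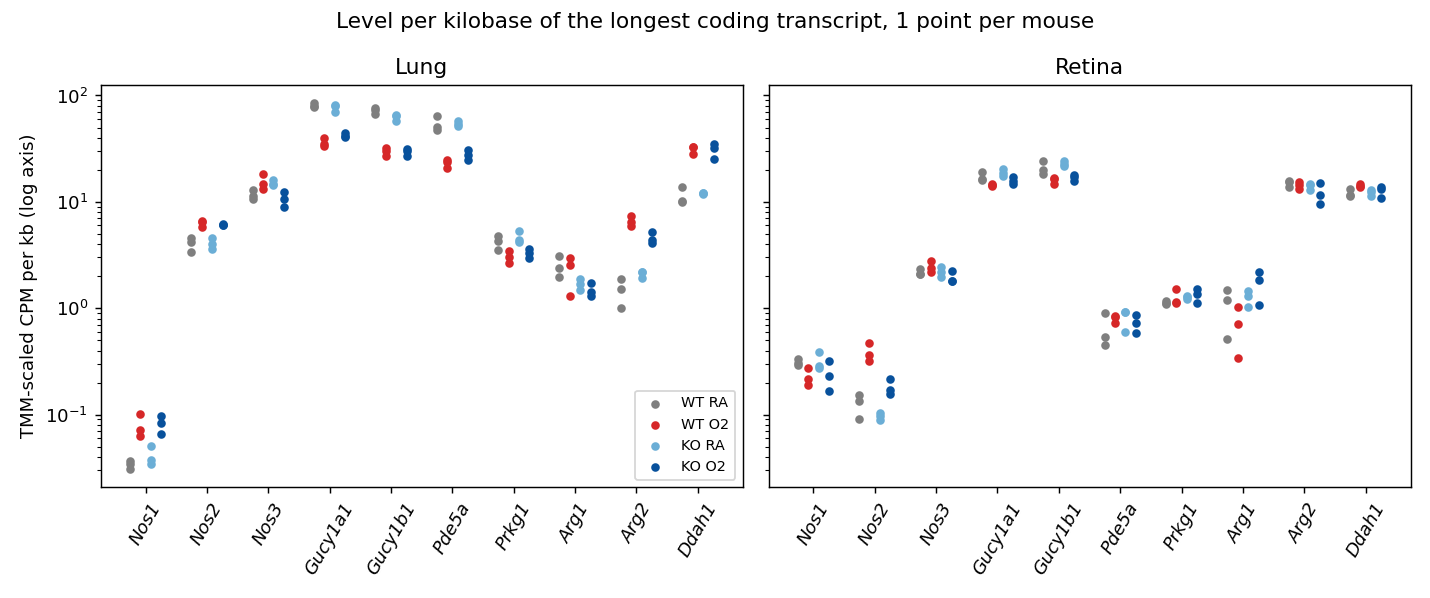
TMM-scaled CPM per kilobase of the longest coding transcript (log axis) for each member, with 1 point per mouse and a colour per group, in the lung (left) and the retina (right). The cyclase subunits led in both tissues, Nos1 was lowest in the lung at 0.0588 CPM per kb, and Nos2 was lowest in the retina at 0.197 CPM per kb.

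The first question was what hyperoxia did to these transcripts in lungs of WT mice. Of the members 9 of 10 differed between WT-O2 and WT-RA at an adjusted p under 0.1 by edgeR's quasi-likelihood test, adjusted by Benjamini-Hochberg over 16819 genes, and rose, fell and passed have that meaning throughout. The share among all genes tested was 49.2%. The members were chosen with earlier results of these data known, so the comparison of shares is description only. The synthases Nos1, Nos2 and Nos3 with Arg2 and Ddah1 rose, which is 5 members against 24.5% of all genes. The cyclase subunits, Pde5a and Prkg1 fell, which is 4 members against 24.7% of all genes. A subset of 6 of 10 also changed by 2-fold or more at an unadjusted p under 0.05, against 11.6% of all genes, namely Nos1, Gucy1a1, Gucy1b1, Pde5a, Arg2 and Ddah1. The median log2 fold change of the members was 0.14 and that of all genes was -0.01.

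In KO lungs 9 of 10 passed as well, against 46.7% of all genes, with 4 higher (23.3% of all genes) and 5 lower (23.4%). Nos3 stood on the other side, and Arg1 again did not pass. A subset of 4 of 10 changed by 2-fold or more, against 10.6% of all genes, namely Nos1, Gucy1b1, Arg2 and Ddah1. The median log2 fold change of the members was -0.34 and that of all genes was -0.01.

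**Figure D2:**
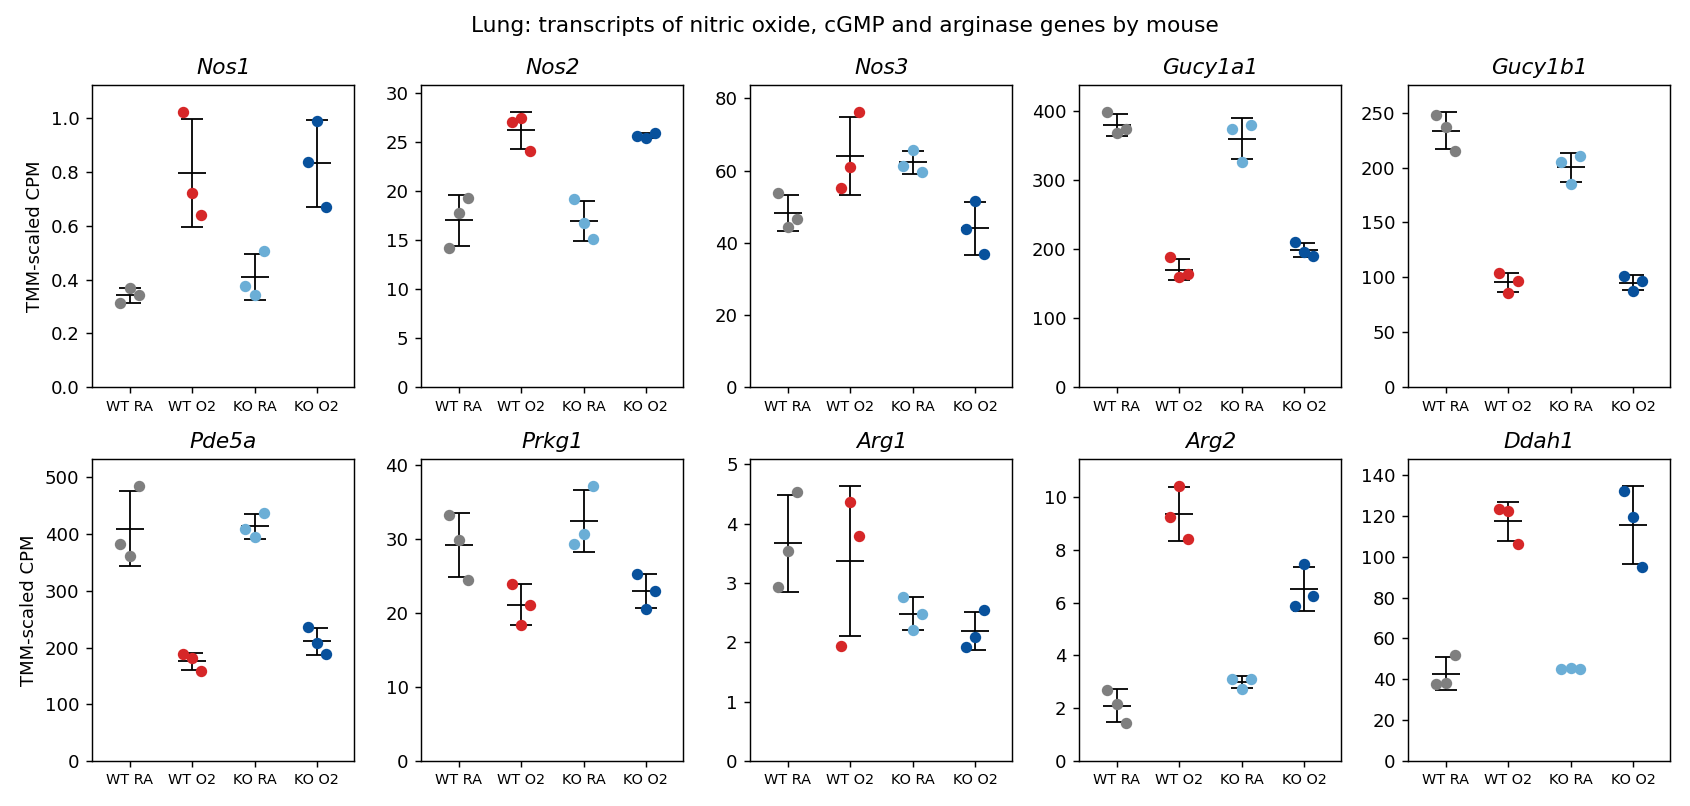
TMM-scaled CPM of each member in the lung (vertical axes, each from 0), with 1 point per mouse in the groups WT-RA, WT-O2, KO-RA and KO-O2, and bars for the mean ± SD of 3 mice. Gucy1a1, Gucy1b1 and Pde5a were lower and Arg2 and Ddah1 higher in every hyperoxia lung than in every RA lung of the same genotype, and Nos3 moved in opposite directions in the 2 genotypes.

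Among the NO synthases, Nos3 gave the only change of opposite direction. Nos3 (chr5:24364810-24384474 on the plus strand of GRCm38) had 53.8, 44.4 and 46.5 TMM-scaled CPM in WT-RA lungs and 55.2, 61.0 and 76.1 CPM in WT-O2 lungs. It had 61.4, 65.7 and 59.6 CPM in KO-RA lungs and 43.7, 51.4 and 36.8 CPM in KO-O2 lungs. All WT-O2 lungs lay above all WT-RA lungs, and all KO-O2 lungs lay below all KO-RA lungs. In WT Nos3 rose by a log2 fold change of 0.41 (SE 0.13, adjusted p = 0.0213 by edgeR's quasi-likelihood test), and in KO it fell by 0.50 (SE 0.13, adjusted p = 0.00755). Without WT-O2 replicate 3, the highest lung, the rise in WT was 0.27 with an adjusted p of 0.112 and no longer passed.

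The difference between those responses was tested as an interaction of genotype and hyperoxia. For Nos3 it was -0.91 on the log2 scale (SE 0.18), with an unadjusted p of 0.000216 and an adjusted p of 0.282 by edgeR, so it did not pass over all genes. DESeq2 gave an adjusted p of 0.00524 and limma voom 0.328. In hyperoxia Nos3 was lower in KO than in WT by a log2 difference of -0.54 (SE 0.13, unadjusted p = 0.000952, adjusted p = 0.359 by edgeR), and the adjusted p was 0.0397 by DESeq2. In RA it was higher in KO by 0.37 (SE 0.13, unadjusted p = 0.0136, adjusted p = 0.319 by edgeR). These comparisons share groups and are not independent of each other. More KO than WT lungs held Y-linked transcripts, so genotype and sex cannot be fully told apart in them.

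Nos3 is an endothelial transcript, and a set of 8 endothelial markers without Nos3 was read beside it. The markers summed to 3950 to 4234 CPM in WT-RA against 3105 to 3514.5 CPM in WT-O2, and to 3643 to 3763 CPM in KO-RA against 2930 to 3442 CPM in KO-O2. The endothelial sum was thus lower in hyperoxia in both genotypes, whereas Nos3 was lower in KO and higher in WT. In WT 6 of the 8 passed, with 1 of them higher and 5 lower, against 49.2% of all genes passing. In KO 5 passed, with 1 higher and 4 lower, against 46.7% of all genes. Fewer cells of a type and less RNA per cell cannot be told apart in bulk tissue, for this and every other result here. The exons of Nos3 share 294 bases with Atg9b and 1040 bases with Gm15587 on the opposite strand, and whether the counting used strand is not given in the sources used here. Atg9b rose by 0.92 on the log2 scale in WT (adjusted p = 0.0184 by edgeR), and its value was 0.20 in KO (adjusted p = 0.611 by edgeR), and its part in the Nos3 values was not tested.

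Nos2 and Nos1 rose in both genotypes. Nos2 (chr11:78920787-78960254, plus strand) had 14.2, 17.7 and 19.3 CPM in WT-RA and 27.1, 27.4 and 24.1 CPM in WT-O2 lungs. In KO-RA it had 19.2, 16.7 and 15.1 CPM and in KO-O2 25.6, 25.4 and 25.9 CPM. Every hyperoxia lung exceeded every RA lung, and the rise was 1.54-fold in WT (adjusted p = 0.000729) and 1.51-fold in KO (adjusted p = 0.00108, both by edgeR). A set of 8 macrophage markers summed to 233 to 270 CPM in WT-RA against 363 to 369 CPM in WT-O2, and to 192 to 196 CPM in KO-RA against 302 to 352 CPM in KO-O2. Those sums were higher in hyperoxia as well, and their part in the Nos2 values was not tested. Nos1 (chr5:117781032-117958840, plus strand) stayed near or below 1 CPM, with 0.314 to 0.370 CPM in WT-RA against 0.641 to 1.02 CPM in WT-O2, and 0.345 to 0.508 CPM in KO-RA against 0.669 to 0.991 CPM in KO-O2. The groups did not overlap within a genotype, and Nos1 rose 2.30-fold in WT (adjusted p = 0.0104) and 2.02-fold in KO (adjusted p = 0.0243, both by edgeR). Its lowest library held 9 counts, and its exons share 268 bases with Gm26995 on the opposite strand.

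The subunits of soluble guanylate cyclase fell together. Gucy1a1 (chr3:82092427-82145789) and Gucy1b1 (chr3:82032006-82074689) encode the alpha and beta chains of the heterodimer and lie on the minus strand of chromosome 3, with 17737 bases between them. The bases just before their annotated exons are shown because the genes are neighbours and moved together, beside those of Ddah1 on the same chromosome, which moved the other way. The sequences are RefSeq promoters of GRCm38.p6, cut to the part before every annotated exon, from chr3:82145790-82145900 (minus strand), chr3:82074712-82074961 (minus strand) and chr3:145758442-145758674 (plus strand). Capitals mark matches to the GC box (letters GGGCGG), the CCAAT box and the hypoxia response core with G (letters GCGTG). Both strands were searched, also for the hypoxia response core with A (letters ACGTG) and an antioxidant response core (letters TGACNNNGC), for which these windows held no match.
Gucy1a1: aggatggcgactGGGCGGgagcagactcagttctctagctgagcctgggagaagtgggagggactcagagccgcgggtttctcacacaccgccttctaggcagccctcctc
Gucy1b1: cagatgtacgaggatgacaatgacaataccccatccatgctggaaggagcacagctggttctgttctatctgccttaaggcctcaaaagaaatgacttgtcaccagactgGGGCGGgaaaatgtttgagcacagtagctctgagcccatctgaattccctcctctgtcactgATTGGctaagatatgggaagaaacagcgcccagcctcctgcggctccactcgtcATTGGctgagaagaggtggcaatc
Ddah1: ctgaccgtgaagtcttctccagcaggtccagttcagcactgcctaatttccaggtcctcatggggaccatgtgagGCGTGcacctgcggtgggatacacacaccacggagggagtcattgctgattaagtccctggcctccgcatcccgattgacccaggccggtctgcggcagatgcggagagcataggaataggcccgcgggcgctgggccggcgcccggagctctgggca

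Both cyclase windows held 1 GC box, which stands in 11.7% of all promoter windows of 111 bases and in 32.7% of those of 250 bases. The Gucy1b1 window also held 2 CCAAT boxes, both read as ATTGG, a motif present in 33.8% of windows of that length. The Ddah1 window held no GC box or CCAAT box and had 1 GCGTG, which 26.4% of windows of 233 bases hold. No motif overlapped another. These matches describe the letters only.

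Gucy1a1 had 399, 369 and 374 CPM in WT-RA and 188, 159 and 164 CPM in WT-O2 lungs. In KO it had 374, 326 and 381 CPM in RA and 210, 196 and 190 CPM in hyperoxia. No hyperoxia lung reached any RA lung, and Gucy1a1 was lower by 2.23-fold in WT (adjusted p = 1.98e-07) and 1.81-fold in KO (adjusted p = 3.95e-06, both by edgeR). Gucy1b1 had 248, 237 and 215 CPM in WT-RA against 103.5, 86.2 and 96.6 CPM in WT-O2, and 205, 185 and 211 CPM in KO-RA against 101, 87.9 and 96.6 CPM in KO-O2. It was lower by 2.45-fold in WT (adjusted p = 9.25e-08) and 2.10-fold in KO (adjusted p = 6.82e-07, both by edgeR), again with no overlap. The ratio of Gucy1a1 to Gucy1b1, each per kb, was 1.12 ± 0.0646 for WT-RA against 1.22 ± 0.0563 for WT-O2, and 1.23 ± 0.0224 for KO-RA against 1.43 ± 0.0906 for KO-O2 (SD, n = 3). The ratio was highest in KO-O2, with no test made of it.

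Pde5a and Prkg1, downstream of the cyclase, also fell. Pde5a (chr3:122728947-122859374, plus strand) encodes the phosphodiesterase that degrades cGMP in vascular smooth muscle. It had 383, 361 and 485 CPM in WT-RA against 188, 181 and 158 CPM in WT-O2, and 410, 394 and 438 CPM in KO-RA against 236, 208 and 189 CPM in KO-O2. The lungs of the exposures did not overlap, and Pde5a was lower by 2.33-fold in WT (adjusted p = 1.66e-06) and 1.96-fold in KO (adjusted p = 1.52e-05, both by edgeR). Prkg1 (chr19:30564489-31765033, minus strand) encodes PKG type I, the main cGMP kinase of smooth muscle. It had 24.5 to 33.2 CPM in WT-RA against 18.4 to 23.9 CPM in WT-O2, and 29.3 to 37.2 CPM in KO-RA against 20.6 to 25.3 CPM in KO-O2. The separation was narrow in WT, and Prkg1 was lower by 1.38-fold in WT (adjusted p = 0.0115) and 1.41-fold in KO (adjusted p = 0.00845, both by edgeR).

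Markers of smooth muscle and pericytes were read beside these genes, and most of those that passed were higher. The summed level of 8 markers was 1263 to 1788 CPM in WT-RA against 1755 to 1999 CPM in WT-O2, and 1278 to 1356 CPM in KO-RA against 1238 to 1819 CPM in KO-O2. In WT 7 of the 8 passed, 5 of them higher and 2 lower, against 49.2% of all genes passing. In KO 6 of 8 passed, 4 higher and 2 lower, against 46.7% of all genes. The median log2 fold change of the set was 0.40 in WT and 0.46 in KO.

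Ddah1 and Arg2 rose, and Arg1 did not pass. Ddah1 (chr3:145758675-145894277, plus strand), which hydrolyses ADMA, had 37.7, 38.3 and 52.0 CPM in WT-RA and 123, 122 and 106 CPM in WT-O2 lungs. In KO it had 44.9, 45.4 and 45.2 CPM in RA and 132, 120 and 94.8 CPM in hyperoxia. The exposures were far apart, and Ddah1 rose 2.75-fold in WT (adjusted p = 1.43e-06) and 2.56-fold in KO (adjusted p = 3.16e-06, both by edgeR).

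Arg2 (chr12:79130777-79156301, plus strand) had 2.69, 2.15 and 1.44 CPM in WT-RA and 9.27, 10.4 and 8.41 CPM in WT-O2 lungs. In KO it had 3.11, 2.72 and 3.12 CPM in RA and 5.88, 7.47 and 6.25 CPM in hyperoxia. All 4 groups were separate, with KO above WT in RA and below WT in hyperoxia. The gap in RA was narrow, at 79 counts in KO-RA replicate 2 against 77 counts in WT-RA replicate 1. Neither difference between genotypes passed (adjusted p = 0.398 in RA and 0.679 in hyperoxia by edgeR). Arg2 rose 4.47-fold in WT (adjusted p = 1.21e-06) and 2.19-fold in KO (adjusted p = 0.000361, both by edgeR). The interaction was -1.03 on the log2 scale (SE 0.28, unadjusted p = 0.00212, adjusted p = 0.420 by edgeR) and did not pass, while DESeq2 gave an adjusted p of 0.0729 and limma voom 0.424. The exons of Arg2 share 285 bases with Vti1b and 116 bases with Gm48780 on the opposite strand. Vti1b rose by 0.22 on the log2 scale in WT (adjusted p = 0.0213 by edgeR), with 0.04 in KO, and its part in the Arg2 values was not tested.

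Arg1 (chr10:24915221-24927484, minus strand), the cytosolic arginase of liver and of alternatively activated macrophages, had 2.93, 3.53 and 4.54 CPM in WT-RA and 1.94, 4.37 and 3.78 CPM in WT-O2. It had 2.77, 2.21 and 2.47 CPM in KO-RA and 1.92, 2.09 and 2.54 CPM in KO-O2. Exposures overlapped in both genotypes, with log2 fold changes of -0.12 (SE 0.26, adjusted p = 0.734) in WT and -0.18 (SE 0.27, adjusted p = 0.632, by edgeR) in KO. Liver markers summed to 163 CPM in KO-O2 replicate 1, against at most 3.19 CPM in the other lungs, and Arg1 in that lung was the lowest of all 12 at 1.92 CPM. Per kb the ratio of Arg2 to Arg1 was 0.636 ± 0.310 in WT-RA and 3.23 ± 1.48 in WT-O2, and 1.25 ± 0.0752 for KO-RA against 3.13 ± 0.577 for KO-O2 (SD, n = 3). In the group means Arg1 was the more abundant arginase in WT-RA lungs and Arg2 in the other groups.

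**Figure D3:**
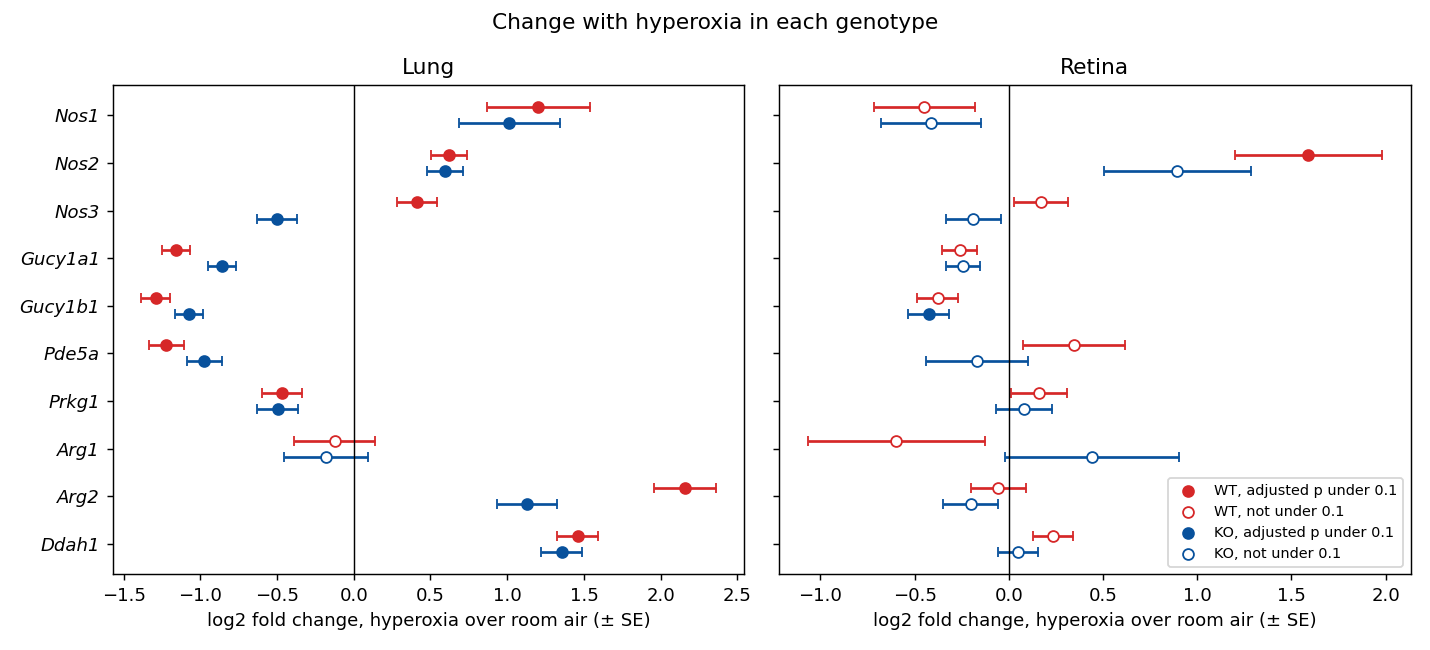
Log2 fold change of hyperoxia over RA (horizontal axis) for each member in WT (red) and KO (blue), in the lung (left) and the retina (right). Bars are ± 1 SE from edgeR, filled points have an adjusted p under 0.1, and Nos3 in the lung lies at 0.41 in WT and -0.50 in KO.

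Genotype was compared next. Lungs with Y-linked transcripts numbered 0 of 3 in WT-RA and 1 of 3 in WT-O2. For KO they numbered 2 of 3 in RA and 3 of 3 in hyperoxia, so genotype and sex cannot be fully told apart. Between KO-O2 and WT-O2 lungs 0 of 10 members passed by edgeR, against 0.0416% of all genes. An unadjusted p under 0.05 by edgeR was found for 5 members, against 1045 of 16819 genes. By DESeq2 1 passed (Nos3), against 88 of 26029 genes, and 0 passed by limma voom. The 5 were Nos3, Arg2 with a log2 difference of -0.52 (SE 0.18), Arg1 with -0.62 (SE 0.27), Gucy1a1 with 0.22 (SE 0.09) and Pde5a with 0.26 (SE 0.12). With TMM scaling all KO-O2 lungs lay above all WT-O2 lungs for Gucy1a1 and Pde5a and below them for Nos3 and Arg2. As CPM of the library total these groups overlapped for Gucy1a1. The share of all genes with such separation was not counted, so it is description only. A set of 5 markers of alternatively activated macrophages was read beside Arg1, and summed to 134 to 635 CPM in WT-O2 against 88.3 to 149 CPM in KO-O2, and to 669 to 1261 CPM in WT-RA against 176 to 309 CPM in KO-RA. Of the set 0 passed by edgeR or limma voom in either contrast, 0 passed by DESeq2 in hyperoxia and 2 in RA, and 4 of 5 had an unadjusted p under 0.05 in each, with median log2 differences of -0.73 in hyperoxia and -1.12 in RA. Their part in the Arg1 values was not tested.

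Between KO-RA and WT-RA lungs 0 of 10 passed by edgeR, by DESeq2 and by limma voom, against 0.488% of all genes by edgeR. By DESeq2 423 of 26029 genes passed. With Y-linked transcripts as a covariate 0 of 16819 genes passed by edgeR in this contrast, and 0 for the interaction. The 3 members with an unadjusted p under 0.05 by edgeR were Nos3, Arg2 with 0.51 (SE 0.21) and Gucy1b1 with -0.22 (SE 0.09), against 1762 of 16819 genes. For the interaction 0 of 10 passed by edgeR and by limma voom, against 0.00595% of all genes by edgeR. By DESeq2 2 passed, Nos3 and Arg2, against 110 of 26029 genes. An unadjusted p under 0.05 by edgeR was found for 3 members, against 1130 of 16819 genes, namely Nos3, Arg2 and Gucy1a1 with 0.30 (SE 0.12).

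The rest of the pathway was read from a list of 65 other genes, of which 56 were tested in the lung. Of these 34 passed in WT, 20 higher and 14 lower, and 34 passed in KO, 18 higher and 16 lower. Of all genes 49.2% passed in WT and 46.7% in KO. The list was chosen with earlier results of these data known, so no excess is read from these shares, and no test of the difference was made. The median log2 fold change was 0.07 in WT and 0.01 in KO.

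Genes that supply or use arginine rose without exception among those that passed. Of 9 tested, 7 passed in WT and 6 in KO, all higher, against 24.5% and 23.3% of all genes higher. Odc1, ornithine decarboxylase, which starts polyamine synthesis from the product of arginase, had 48.7 ± 5.87 CPM in WT-RA against 166 ± 13.5 CPM in WT-O2, and 52.3 ± 4.22 CPM in KO-RA against 172 ± 40.4 CPM in KO-O2 (SD, n = 3). Ass1, argininosuccinate synthase, which regenerates arginine from citrulline, had 20.8 ± 1.17 CPM in WT-RA against 54.5 ± 7.21 CPM in WT-O2, and 22.3 ± 0.417 CPM in KO-RA against 53.1 ± 2.89 CPM in KO-O2. Slc7a1, the cationic amino acid transporter, rose by 0.88 and 0.70 on the log2 scale in WT and KO.

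Genes of ADMA removal and of arginine methylation were divided. Ddah2, the other ADMA hydrolase, fell by 0.84 in WT and by 0.80 in KO on the log2 scale, opposite to Ddah1. Prmt5 and Prmt1, arginine methyltransferases, rose by 0.64 and 0.45 in WT and by 0.51 and 0.41 in KO.

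Of 7 partners of the NO synthases tested, 4 were lower in each genotype, and 2 were higher in WT and 1 in KO. Of all genes 24.7% were lower in WT and 23.4% in KO. Cav1, which encodes caveolin-1, the protein that holds NOS3 inactive in caveolae, had 1104 ± 172 CPM in WT-RA against 436 ± 41.4 CPM in WT-O2, and 923 ± 35.0 CPM in KO-RA against 427 ± 21.4 CPM in KO-O2 (SD, n = 3). Nostrin, a NOS3 trafficking factor, fell by 1.22 in WT and by 1.33 in KO on the log2 scale. Cav1 and Nostrin thus fell in both genotypes, including WT, in which Nos3 rose. Dynll1 fell by 0.46 and by 0.40.

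The genes of the tetrahydrobiopterin cofactor were split. Gchfr, the feedback regulator of its synthesis, fell by 1.89 in WT and by 1.60 in KO on the log2 scale. Pts, a synthesis enzyme, fell by 0.34 and by 0.19. Pcbd1, a recycling enzyme, rose by 0.69 and 0.86.

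Among other cGMP genes the largest fall was that of Prkg2, PKG type II, with 17.9 ± 6.16 CPM in WT-RA against 2.68 ± 0.142 CPM in WT-O2, and 12.7 ± 1.29 CPM in KO-RA against 3.55 ± 0.769 CPM in KO-O2 (SD, n = 3). Pde3a fell by 1.37 in WT and by 1.39 in KO on the log2 scale, while Pde1a rose by 0.89 and 0.50. Npr1, a receptor for atrial natriuretic peptide, fell by 1.03 and by 1.07. Mrvi1, a PKG substrate that restrains calcium release, rose by 1.26 and 1.03, and Cngb1, a channel subunit, fell by 1.24 and by 0.97. Npr3, the natriuretic peptide clearance receptor, fell by 1.75 in KO, with 107 ± 36.6 CPM in KO-RA against 31.9 ± 3.22 CPM in KO-O2. In WT its log2 fold change was -0.43 (adjusted p = 0.228 by edgeR).

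Between KO-RA and WT-RA lungs 1 gene of the list passed by edgeR, and 2 passed by DESeq2 and 2 by limma voom. By edgeR it was Pde10a, higher in KO by 1.06 on the log2 scale (SE 0.21, adjusted p = 0.0639). It had 5.00 ± 0.401 CPM in KO-RA and 2.39 ± 0.473 CPM in WT-RA. With Y-linked transcripts as a covariate the log2 difference of Pde10a was 1.09 with an adjusted p of 0.308 by edgeR, and with the RA lungs alone the adjusted p was 0.120. The call was also lost without KO-RA replicate 2 (adjusted p = 0.234) or 3 (0.229) and without WT-RA replicate 1 (0.165) or 2 (0.316), all by edgeR. Pde10a rose with hyperoxia by 1.02 in WT, while its log2 fold change in KO was 0.15. Between KO-O2 and WT-O2 lungs 0 of the 56 passed by edgeR, DESeq2 or limma voom, with 0 at an unadjusted p under 0.05. For the interaction 0 of 56 passed by edgeR and limma voom, 1 passed by DESeq2, and 6 had an unadjusted p under 0.05. Of 5 tested genes listed under NO and nitrosothiol removal, 3 were higher in each genotype, against 24.5% of all genes in WT and 23.3% in KO. These were Gsr (0.52 in WT and 0.54 in KO), Cyb5r3 (0.34 and 0.29) and Cygb, which encodes cytoglobin (1.01 and 0.71).

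**Figure D4:**
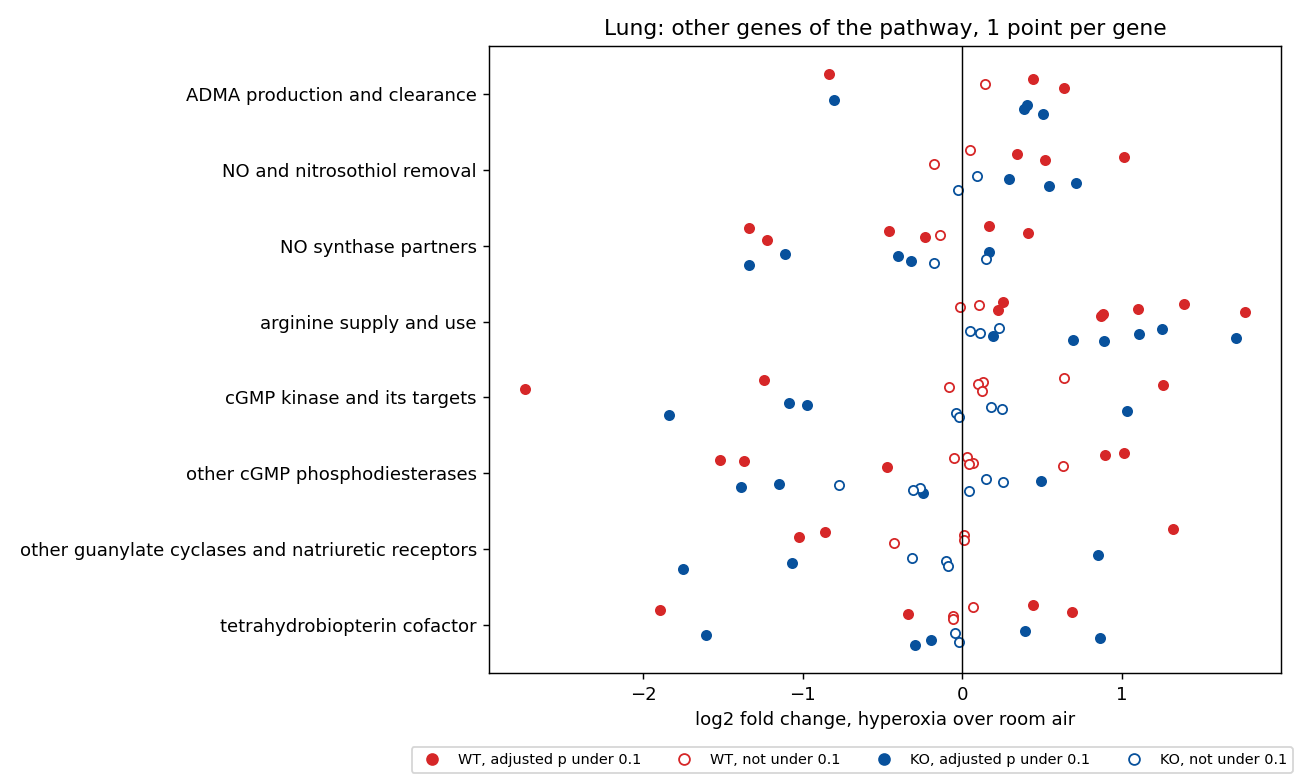
Log2 fold change of hyperoxia over RA in the lung (horizontal axis) for the 56 other pathway genes tested, by function (vertical axis), with WT in red and KO in blue and filled points for an adjusted p under 0.1. The arginine genes that passed lie to the right of 0 in both genotypes (7 in WT and 6 in KO), and the lowest point is Prkg2 in WT.

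The retinas were collected after recovery in RA, and fewer members differed. In WT 1 of 10 passed, Nos2, against 5.16% of the 19173 genes tested. By DESeq2 3 of 10 passed, against 1886 of 27318 genes. An unadjusted p under 0.05 by edgeR was found for 4 members in WT and 3 in KO, against 3332 and 3890 of the 19173 genes. Nos2 also changed by over 2-fold, as did 2.04% of all genes. In KO 1 of 10 passed, Gucy1b1, against 7.82% of all genes, while 0 of 10 changed by 2-fold, against 2.19%. By DESeq2 2 passed in KO, against 2516 of 27318 genes. By edgeR's adjusted p the members' shares lay near these backgrounds.

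Nos2 had 0.560, 0.648 and 0.385 CPM in WT-RA and 1.54, 1.96 and 1.33 CPM in WT-O2 retinas. In KO it had 0.405, 0.370 and 0.437 CPM in RA and 0.902, 0.649 and 0.712 CPM in hyperoxia. The exposures did not overlap in either genotype, and all KO-O2 retinas lay below all WT-O2 retinas. In WT Nos2 rose 3.01-fold (log2 1.59, SE 0.39, adjusted p = 0.0577 by edgeR), and in KO its log2 fold change was 0.89 (SE 0.39, adjusted p = 0.225 by edgeR). KO-O2 against WT-O2 gave -1.09 (SE 0.38, unadjusted p = 0.0152, adjusted p = 0.251 by edgeR), and the interaction was -0.70 (SE 0.55, adjusted p = 0.672 by edgeR).

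The rise of Nos2 rests on few counts, as few as 9 in a library, and it no longer passed when any 1 of the 6 WT retinas was left out. Leaving out the 3 libraries that held lens transcripts left replicate 1 as the only WT-RA retina, and the log2 fold change of Nos2 was then 1.51. Without the library labelled WT-RA replicate 2 alone it was 1.76, with an adjusted p of 0.119 by edgeR. With Y-linked transcripts as a covariate the adjusted p was 0.216. Macrophage and microglia markers summed to 21.5 to 28.4 CPM in WT-RA against 44.1 to 62.9 CPM in WT-O2, and to 20.1 to 30.9 CPM in KO-RA against 42.1 to 61.9 CPM in KO-O2, so they were higher after hyperoxia in both genotypes, and their part in the Nos2 values was not tested.

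Gucy1b1 was the member that fell in KO retinas. It had 78.3, 69.4 and 72.6 CPM in KO-RA and 57.8, 50.7 and 55.5 CPM in KO-O2, a 1.34-fold difference (log2 -0.43, SE 0.11, adjusted p = 0.0561 by edgeR). In WT it had 77.5, 63.7 and 58.7 CPM in RA and 53.0, 47.3 and 53.5 CPM in hyperoxia, with a log2 fold change of -0.38 (SE 0.11, adjusted p = 0.102 by edgeR). With TMM scaling the exposures did not overlap in either genotype, and WT lay just outside the threshold. As CPM of the library total they overlapped in WT, at 50.7 to 69.7 CPM in RA and 52.1 to 55.4 CPM in hyperoxia, but not in KO. The call in KO was lost without KO-O2 replicate 2 or 3 or KO-RA replicate 1 or 3, with log2 fold changes of -0.47 to -0.37 over all retinas left out. It was also lost with Y-linked transcripts as a covariate. Leaving out the lens libraries left replicate 1 as the only WT-RA retina, the highest of its group at 77.5 CPM. The log2 fold change of Gucy1b1 was then -0.60 in WT and -0.43 in KO. The interaction was -0.05 (SE 0.16).

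Gucy1a1 had 89.4, 76.1 and 77.6 CPM in WT-RA against 65.8, 69.8 and 67.2 CPM in WT-O2, and 95.4, 82.7 and 87.3 CPM in KO-RA against 74.3, 69.3 and 80.5 CPM in KO-O2. With TMM scaling hyperoxia retinas lay below RA retinas in each genotype. The log2 fold changes were -0.26 (SE 0.09, adjusted p = 0.169) in WT and -0.24 (SE 0.09, adjusted p = 0.166, by edgeR) in KO, which did not pass. As CPM of the library total the exposures overlapped in both genotypes. The means were then 72.9 CPM in WT-RA and 71.6 CPM in WT-O2, and 89.4 CPM in KO-RA and 78.0 CPM in KO-O2. Per kb the ratio of Gucy1a1 to Gucy1b1 was 0.837 ± 0.0599 for WT-RA against 0.907 ± 0.0900 for WT-O2, and 0.824 ± 0.00892 for KO-RA against 0.936 ± 0.0559 for KO-O2 (SD, n = 3). The beta chain was the more abundant in the mean of each retina group, and the alpha chain in each lung group.

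**Figure D5:**
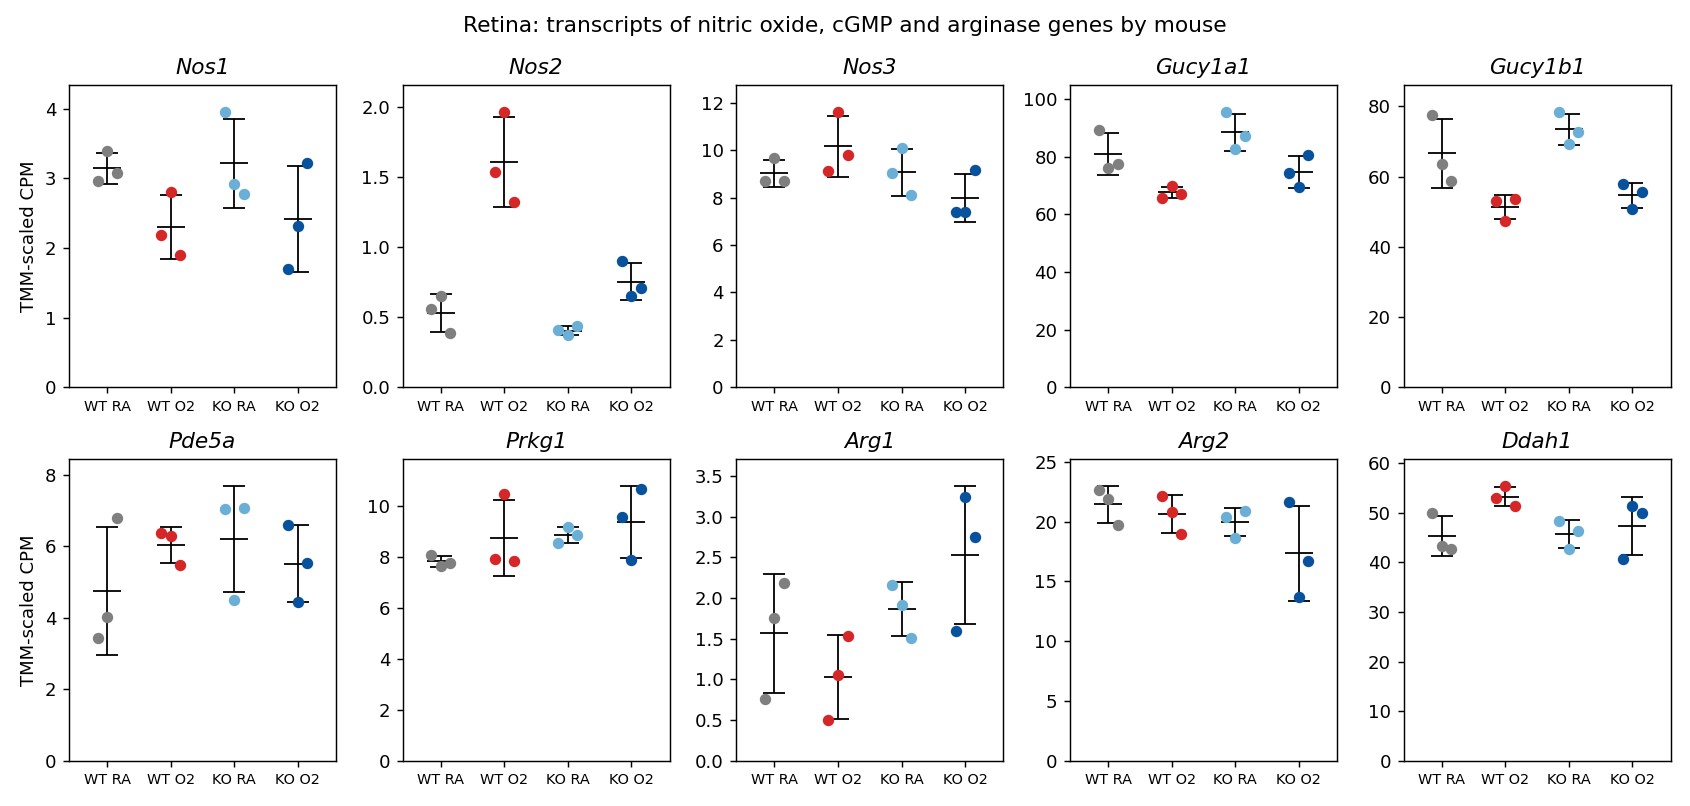
TMM-scaled CPM of each member in the retina (vertical axes, each from 0), with 1 point per mouse in the groups WT-RA, WT-O2, KO-RA and KO-O2, and bars for the mean ± SD of 3 mice. Nos2 was highest in the 3 WT-O2 retinas, at 1.33 to 1.96 CPM. On this scale Gucy1b1 was lower in every hyperoxia retina than in every RA retina of the same genotype.

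The remaining members did not pass in the retina. Nos3 ranged from 7.38 to 11.6 CPM over all 12 retinas, with log2 fold changes of 0.17 (SE 0.14) for WT and -0.19 (SE 0.14) for KO. In hyperoxia it was lower in KO, with a log2 difference of -0.35 (SE 0.14, unadjusted p = 0.0317, adjusted p = 0.334 by edgeR). Endothelial markers summed to 106 to 124 CPM in WT-RA against 222 to 257 CPM in WT-O2, and to 118 to 150 CPM in KO-RA against 185 to 204 CPM in KO-O2, so the set was higher after hyperoxia while Nos3 overlapped between exposures. Nos1 had 2.96 to 3.39 CPM in WT-RA and 1.90 to 2.80 CPM in WT-O2, and its log2 fold change was -0.45 (SE 0.27). These groups did not overlap with TMM scaling, but they did as CPM of the library total.

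Arg2, the main retinal arginase per kb, ranged from 13.7 to 22.7 CPM, and exposures overlapped in both genotypes, unlike in the lung. Arg1 ranged from 0.500 to 3.25 CPM. All KO-O2 retinas (1.60, 3.25 and 2.75 CPM) lay above all WT-O2 retinas (0.500, 1.06 and 1.53 CPM) for Arg1, a log2 difference of 1.29 (SE 0.47, unadjusted p = 0.0190, adjusted p = 0.274 by edgeR). Ddah1 had 51.4 to 55.4 CPM in WT-O2 and 42.8 to 50.0 CPM in WT-RA, with a log2 fold change of 0.23 (SE 0.11, adjusted p = 0.285 by edgeR), and 40.6 to 51.4 CPM in the KO groups. Pde5a ranged from 3.44 to 7.07 CPM and Prkg1 from 7.66 to 10.7 CPM, with overlap between exposures in both genotypes.

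Between genotypes 0 of 10 members passed in the retina by edgeR, DESeq2 or limma voom, in hyperoxia (1.27% of all genes by edgeR), in RA (0.00522%) or for the interaction (0.00522%). By DESeq2 965, 731 and 547 of 27318 genes passed in these contrasts. At an unadjusted p under 0.05 by edgeR there were 3 members in hyperoxia, namely Nos2, Nos3 and Arg1, 0 in RA and 0 for the interaction. Of the 19173 genes tested 2412, 2427 and 2035 had such a p in these contrasts.

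Of the other pathway genes 63 were tested in the retina, and 6 passed in WT by edgeR, 3 higher and 3 lower, against 5.16% of all genes, with 12 by DESeq2 and 6 by limma voom. Cav1 rose by a log2 fold change of 0.73 (SE 0.11, adjusted p = 0.00600 by edgeR), from 46.1 ± 4.26 to 76.3 ± 8.05 CPM (SD, n = 3). In KO it had 50.4 ± 4.37 CPM in RA and 44.3 ± 2.38 CPM in hyperoxia. Between KO-O2 and WT-O2 retinas 1 gene of the list passed by edgeR and by limma voom and 4 by DESeq2. By edgeR it was Cav1, lower in KO, with a log2 difference of -0.79 (SE 0.11, adjusted p = 0.0211). Without KO-O2 replicate 3 the adjusted p of Cav1 was 0.135 by edgeR. Its interaction of -0.91 (SE 0.15) had an adjusted p of 0.123 by edgeR. Slc7a1 and Vasp, a PKG substrate, rose by 0.71 each in WT. Guca1a, which activates the photoreceptor guanylate cyclases, fell by 1.01, Npr2 by 0.64 and Azin2 by 0.45.

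In KO retinas 4 of 63 passed by edgeR, against 7.82% of all genes, with 10 by DESeq2 and 6 by limma voom. Ass1 rose by 0.77 (SE 0.19, adjusted p = 0.0472 by edgeR), from 24.7 ± 2.34 to 42.2 ± 3.89 CPM, whereas WT had 42.1 ± 10.8 CPM in RA and 40.4 ± 8.54 CPM in hyperoxia (SD, n = 3). Pde2a rose by 0.78, and Guca1a and Pde1c fell by 0.65 and by 0.36. In RA and for the interaction 0 of 63 passed by edgeR and limma voom, with 9 and 10 at an unadjusted p under 0.05 and 3 and 4 by DESeq2.

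The genes most like 4 of the members over the 12 libraries of a tissue were read from log2 CPM as a description, since libraries share their group and scaling. In the lung the closest to Nos2 were Pepd (Pearson r 0.988), Syngr1 (0.983) and Wdr6 (0.977), and the closest to Prkg1 were Dmd (0.984), which encodes dystrophin, Tmod3 (0.977) and Heca (0.977). Nos3, with its pattern of opposite directions, had its closest genes at lower values, Tspyl2 (0.849), Gm5936 (0.848) and Upp1 (0.827), and Arg1 had Vmn1r60 (0.905), Mad2l1bp (0.881) and Mrpl36 (0.865). In the retina the closest to Nos2 were Atf3 (0.957), a stress-induced transcription factor, 2610528A11Rik (0.943) and Itprip (0.933). Retinal Nos3 was closest to Bpifc (0.928), Adck2 (0.883) and Plk1 (0.852), Prkg1 to S100a9 (0.887), Gm19195 (0.882) and Gm28924 (0.873), and Arg1 to Thsd7a (0.920), Gm29516 (0.899) and Gm8425 (0.896). Several of these genes were low in level. In the retina Itprip, Bpifc, S100a9, Gm19195, Gm28924, Gm29516 and Gm8425 had means of 0.13 to 0.47 CPM. In the lung Gm5936 and Vmn1r60 had means of 0.217 and 0.62 CPM.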

How the data were processed

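RNA-seq of whole lung and retina from 24 mice was used, grouped by the genotype and exposure on the labels. Per the methods and labels, the authors aligned reads to the mouse transcriptome with kallisto, collapsed transcripts to genes by tximport, and deposited for each tissue a table of each gene's expected count, also called an estimated count, without scaling for depth. The labels name build mm10 and the methods GRCm39, and the coordinates here are those of a GRCm38 annotation matched by gene identifier. Whole values within 0.01 made up 55.8% of nonzero lung values but 2.20% of retina values, and tests were made within a tissue.

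Counts were rounded. R 4.3.3 and edgeR 4.0.16 fitted a model with the 4 groups of a tissue, using TMM factors, filterByExpr and robust quasi-likelihood dispersions. F-tests of 5 contrasts were adjusted by Benjamini-Hochberg over all genes tested, and a gene passed at an adjusted p under 0.1. Levels are TMM-scaled CPM, and marker sums and Gsdmd are CPM of the library total. Separation of groups without overlap was not counted over all genes and is given as description. The scripts were tested on simulated data.

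The members and all gene lists were chosen with earlier results of these data known. Other pathway genes were named at most 3 per function and tissue, by the smallest p under hyperoxia among those passing with a mean of at least 1 CPM, along with the 3 genes of highest Pearson r for Arg1, Nos2, Nos3 and Prkg1. Alternatives were DESeq2 1.42.0, limma voom (limma 3.58.1), other normalizations, filters, thresholds and sample sets, and a Y-linked covariate. Fits without TMM and without the lens libraries were added after seeing the data. Each library is 1 mouse, no pair of libraries agreed within sampling noise, and p-values measure the spread between these mice. RefSeq promoters were given for 6 of 10 members.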

Additional observations from a re-analysis of the deposited data

Results flagged for a closer look

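Nos3 in the lung moved in opposite directions with hyperoxia in the 2 genotypes, and no other member did so with complete separation in either tissue. All 3 WT-O2 lungs lay above all 3 WT-RA lungs, and all 3 KO-O2 lungs lay below all 3 KO-RA lungs. How many of all genes separate in this way was not counted. The interaction of genotype and hyperoxia was -0.91 on the log2 scale (SE 0.18, unadjusted p = 0.000216, adjusted p = 0.282 by edgeR's quasi-likelihood test over all genes), and DESeq2 gave an adjusted p of 0.00524. With each of the 12 lungs left out in turn the interaction lay between -1.03 and -0.78, with adjusted p-values of 0.130 to 0.730 by edgeR. More KO than WT lungs held Y-linked transcripts, so genotype and sex cannot be fully told apart here.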

How the results depend on the processing

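No paired analysis was possible because the labels give no replicate numbers that groups share. In the lung 9 members passed in WT and 9 in KO, and each kept its direction under every alternative in which it was tested. Both counts were 8 with the filter at a mean of 1 CPM, which leaves out Nos1, and the count in WT was 8 without WT-O2 replicate 3. With a 2-fold threshold the counts were 6 in WT and 4 in KO. The count for KO-O2 against WT-O2 was 1 and for the interaction 2 by DESeq2, against 0 as reported. In the retina the count in WT was 1, and it was 2 with RLE normalization and with library totals without TMM, 3 by DESeq2, and 0 with only the samples of the contrast, with Y-linked transcripts as a covariate and at an adjusted p under 0.05. The count in KO was 1, and it was 2 by DESeq2 and 0 with library totals without TMM, with the Y-linked covariate, at an adjusted p under 0.05 and with the 2-fold threshold. With single retinas left out both counts lay between 0 and 1. The adjusted p of Nos2 in WT retinas ranged from 0.00776 to 0.220 and that of Gucy1b1 in KO retinas from 0.00505 to 0.219 over the alternatives, and neither changed sign. Nos2 was not tested under the filter at a mean of 1 CPM. Leaving out TMM moved the median log2 fold change of all retina genes by 0.24 in WT, 0.17 for KO-RA against WT-RA and -0.19 for the interaction, and in WT 2477 genes passed higher and 119 lower in place of 597 and 393. The cause was not tested. For the 20 member results that passed, 383 fits under alternatives still passed, 16 did not and 0 changed sign. Results that passed only under an alternative are not in this count. Of 80 group levels 70 moved by less than 1 SD without TMM and 10 by more. Counting error limits Nos1 in the lung and Nos2 in the retina, each with 9 counts in its lowest library.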
